A study of Mus musculus with 4 samples.

Results

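The accessible chromatin of 10 mouse genes of the endoderm, Sox17, Foxa1, Foxa2, Cer1, Hhex, Sox7, Afp, Ttr, Cldn6 and Epcam, was examined in embryoid bodies (EBs) on day 4 after differentiation. The genes were chosen by name, with earlier results of these data known, as 10 of the 21840 protein-coding genes of the annotation. All 10 were found. Their accessible regions were every peak within 50 kb of a transcription start site (TSS) of a member, and their promoters were the windows within 1 kb of a TSS. Peaks of the libraries that shared at least 1 bp were merged into a region, which gave 65 regions near the members of 80380 in all.

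EBs are clumps of differentiating mouse embryonic stem cells, here of the line E14Tg2A, that come to hold several early lineages, and they were grown by the hanging-drop method in serum without LIF. WT EBs were compared with CTCF-K20R EBs, whose cells carry an edited CTCF with arginine in place of lysine 20, so that this lysine can no longer be acetylated. Open chromatin was measured by ATAC-seq, which tags the DNA that a transposase can reach, with 2 libraries of each genotype called WT replicates 1 and 2 and K20R replicates 1 and 2. EBs hold several cell types, and a lower signal from fewer cells of a type cannot be told apart from a less open site in each cell. The mutation was made in stem cell clones, and the labels do not say whether both K20R libraries came from the same clone.

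The definitive endoderm gives rise to the gut, liver and pancreas, and the visceral endoderm surrounds the early embryo and nourishes it. SOX17, FOXA1, FOXA2 and HHEX are transcription factors of endoderm cells, and FOXA proteins are known for binding their sites in closed chromatin. SOX7 acts in extraembryonic endoderm and vessels. CER1 is a secreted inhibitor of Nodal, BMP and Wnt signals, AFP and TTR are secreted proteins of visceral endoderm and liver, and CLDN6 and EPCAM are membrane proteins of epithelial cells.

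The sequences on which the following results turn are given first, each on the + strand of mm10 around the strongest summit of its region. They are the Foxa2 promoter, which ranked lower in both K20R libraries, 2 distal regions near Foxa2 and Foxa1 with peaks in the WT lists alone, and the most lowered distal regions near Cer1, Sox17 and Hhex. Capitals mark letters that match a searched motif.
Foxa2 promoter, chr2:148046306-148046505: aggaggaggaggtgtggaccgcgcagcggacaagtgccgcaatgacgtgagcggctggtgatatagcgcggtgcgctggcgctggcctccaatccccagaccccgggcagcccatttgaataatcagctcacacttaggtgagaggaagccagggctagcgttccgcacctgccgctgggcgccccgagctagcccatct
Foxa2 region 40.6 kb downstream, chr2:148005231-148005530: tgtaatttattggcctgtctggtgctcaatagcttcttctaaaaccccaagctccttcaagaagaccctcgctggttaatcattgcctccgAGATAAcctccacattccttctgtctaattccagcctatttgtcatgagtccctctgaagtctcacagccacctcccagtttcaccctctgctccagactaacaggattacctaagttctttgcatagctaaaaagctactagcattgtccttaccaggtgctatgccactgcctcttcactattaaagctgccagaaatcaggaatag
Foxa1 region 26.5 kb upstream, chr12:57572474-57572673: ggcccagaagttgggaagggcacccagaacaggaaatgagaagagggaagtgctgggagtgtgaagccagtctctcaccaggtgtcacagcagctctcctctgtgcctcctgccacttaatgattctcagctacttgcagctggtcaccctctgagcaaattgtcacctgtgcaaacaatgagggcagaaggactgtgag
Cer1 region 35.8 kb downstream, chr4:82849252-82849451: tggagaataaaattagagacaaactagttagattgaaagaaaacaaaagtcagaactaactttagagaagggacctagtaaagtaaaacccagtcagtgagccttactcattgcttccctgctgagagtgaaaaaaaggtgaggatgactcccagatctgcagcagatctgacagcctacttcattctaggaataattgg
Sox17 region 46.8 kb upstream, chr1:4544042-4544341: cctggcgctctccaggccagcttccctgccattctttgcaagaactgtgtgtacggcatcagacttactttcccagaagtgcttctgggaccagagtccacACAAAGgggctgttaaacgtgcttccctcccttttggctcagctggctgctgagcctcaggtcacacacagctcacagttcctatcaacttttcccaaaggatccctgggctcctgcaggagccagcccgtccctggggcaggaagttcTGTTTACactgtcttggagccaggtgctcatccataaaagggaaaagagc
Hhex region 15.1 kb upstream, chr19:37419609-37419908: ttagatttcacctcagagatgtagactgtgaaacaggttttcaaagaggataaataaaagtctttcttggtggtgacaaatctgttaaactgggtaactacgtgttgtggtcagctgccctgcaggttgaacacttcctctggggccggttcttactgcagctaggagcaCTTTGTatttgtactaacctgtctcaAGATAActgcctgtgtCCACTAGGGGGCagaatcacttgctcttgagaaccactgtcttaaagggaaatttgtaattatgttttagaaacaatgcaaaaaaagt

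The motifs of endoderm factors, of Wnt and Nodal effectors and of CTCF were searched as letters on both strands within 150 bp of the strongest summit. The printed Sox17 region holds SOX letters from base 102 and FOXA letters from base 251. The printed Hhex region holds SOX letters on the opposite strand from base 171, GATA letters from base 197 and CTCF letters from base 213. The Foxa2 downstream region holds GATA letters from base 92, and the other 3 sequences hold none of the 7 motifs. Over the 65 regions, 24.6% held the SOX letters ACAAAG, beside 22.9% of all 80380 regions. The GATA letters AGATAA were in 13.8% of the regions near the members and in 12.0% of all. The FOXA letters TGTTTAC were in 3.08% and 4.67%, and the CTCF consensus was in 4.62% and 6.22%. The T-box letters TCACACCT were in 1.54% and 1.72%. The TCF-LEF letters ATCAAAG were in 1.54% and 4.02%, and the FOXH1 letters AATCCACA were in 0% and 1.06%.

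The 4 lists numbered 59783 and 66703 peaks for WT, against 51823 and 55832 for K20R. Peaks with a q above 0.05 were kept, and made up 4.55% and 2.33% of the WT lists and 5.05% and 2.18% of the K20R lists. Depth relative to WT replicate 1, as implied by the local background of the lists, was between 0.976 and 1.15. Enrichment was higher in replicate 2 of both genotypes, with a median fold at common regions of 7.74 in WT and 7.59 in K20R, beside 5.86 and 5.73 in replicate 1. The lists differ in length, so the strength of a peak was given as a percentile within its own list by −log10 p, with 100 for the strongest peak. The other scales were the rank taken anew among the genes or regions present in all 4 lists, and the summit pileup, the number of fragments over the summit, on a log2 scale relative to the median of common regions of the same library. A value is called lower or higher in K20R only where both K20R libraries lie below or above both WT libraries. With 2 libraries against 2, the exact two-sided permutation test cannot give a p below 0.333, so no single difference could pass a threshold of 0.05 and the calls are descriptions. All 4 primitive streak and mesoderm markers and all 4 markers of pluripotent cells had a promoter peak in every library, as did 4 of 5 fibroblast markers (the stem cells were kept on feeder fibroblasts). Only the presence of a peak was compared for these markers, so a difference in the share of their cells was not tested.

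Of the 10 members, 7 had a promoter peak in every library and 3, Cer1, Afp and Ttr, had one in no library. At the percentile 1.77, the Sox17 peak of K20R replicate 1 lies by rank within the 5.05% of its list with a q above 0.05. Among all protein-coding genes, 66.3% had a promoter peak in all 4 lists and 29.7% in none. Of the 7, 4 ranked lower in K20R (Sox17, Foxa1, Foxa2 and Sox7), 1 ranked higher (Cldn6) and 2 overlapped (Hhex and Epcam). The same calls over the 14478 genes with a promoter peak in all 4 lists gave 32.2% lower and 15.7% higher. Taken anew among these genes, the members' calls stayed at 4 lower and 1 higher, beside 23.0% lower and 23.8% higher of all genes. By percentile, the median difference of K20R from WT was −5.23 points for the 7 members, the value of Foxa1, and −0.824 points for all genes. It was −4.52 points for the members without Sox7. Ranked anew, it was −2.76 points for the 7 members, beside 0.0656 points for all genes. Sox7 lies in a stretch of chromosome 14 that was lower as a whole, and without it 3 of 6 members with promoter peaks were lower. The lower calls of Foxa1 and Sox17 each compare different sites of the promoter, as described below.

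**Figure D1:**
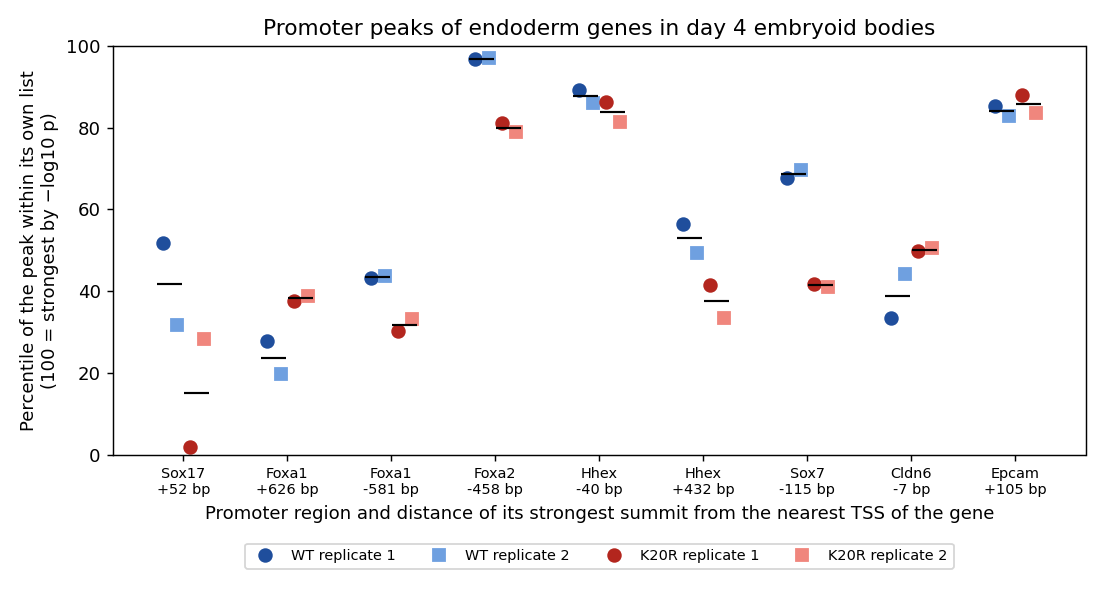
Percentile of the promoter peak within its own list (vertical axis) for the 9 promoter regions with a peak in all 4 lists, of 7 members, with the distance of the strongest summit from the nearest TSS under each name. Points are the 4 libraries and short lines are the means of the 2 libraries of a genotype. Foxa2 stood at 96.7 and 97.1 in WT, compared with 81.1 and 78.9 in K20R, the 2 Foxa1 regions differed in opposite directions, and the points of the main Hhex promoter and of Epcam were mixed.

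Foxa2, a forkhead factor needed for the node, the notochord and the definitive endoderm, had the highest ranked promoter of the members in WT. Its promoter peak (chromosome 2, 148045575 to 148047014) was at the percentiles 96.7 and 97.1 in the WT lists, and 81.1 and 78.9 in the K20R lists. Its summit pileup was 165 and 266 in WT, against 95 and 140 in K20R. Depth relative to WT replicate 1, as implied by the local background, was 0.976 in WT replicate 2, and 1.15 and 1.04 in the K20R libraries. The WT mean was 96.9 ± 0.302 (SD, n = 2) and the K20R mean 80.0 ± 1.58 (SD, n = 2), so the difference of −16.9 points was many times the spread between replicates. The exact permutation p was 0.333, the smallest possible. Relative to the library medians, the pileup difference was −0.91 on the log2 scale, and 5.03% of the 38527 common regions had a lower value.

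The promoter was not the only Foxa2 region that was lower. A region 5.04 kb downstream of the TSS, beyond the end of the gene (148038124 to 148041706), was at the percentiles 78.0 and 78.2 in WT, compared with 55.6 and 48.2 in K20R, with pileups of 88, 134, 44 and 71. Both K20R libraries lay below both WT libraries, and relative to the library medians the pileups were 1.21 and 1.26 in WT, against 0.17 and 0.29 in K20R on the log2 scale. In K20R replicate 1 the strongest peak of this region (148039303 to 148040106) did not reach the region's summit at 148040908, and the peak that did was at the percentile 44.8. The WT-restricted region 40.6 kb downstream (148004982 to 148005677) was at the percentiles 69.0 and 76.3 in WT. It had no peak in either K20R list, and 1 called peak is missing from the numbering of K20R replicate 1 around it and 0 from that of replicate 2. By contrast, the strongest region with peaks in all 4 lists outside the promoter window, 1.71 kb upstream, was at 69.7 and 66.9 in the WT lists, and 76.9 and 70.2 in the K20R lists, and its pileups relative to the library medians overlapped. A K20R-restricted region (148044001 to 148045187) reached into the promoter window, with its summit over an exon 1.57 kb downstream of the nearer TSS. It was at the percentiles 13.9 and 26.4, with no missing peak numbers in the WT lists. Its pileups of 38 and 68 stood over local backgrounds of 19.2 and 30.1, and its folds of 1.93 and 2.22 were below the median folds of 4.73 and 6.04 of the K20R lists. The common regions 15.3 kb downstream and 35.5 kb upstream overlapped by percentile. Relative to the library medians, the pileups of the upstream one were lower in K20R, at −0.25 and −0.52 in WT, against −1.29 and −0.69 in K20R. Those of the downstream one overlapped.

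**Figure D2:**
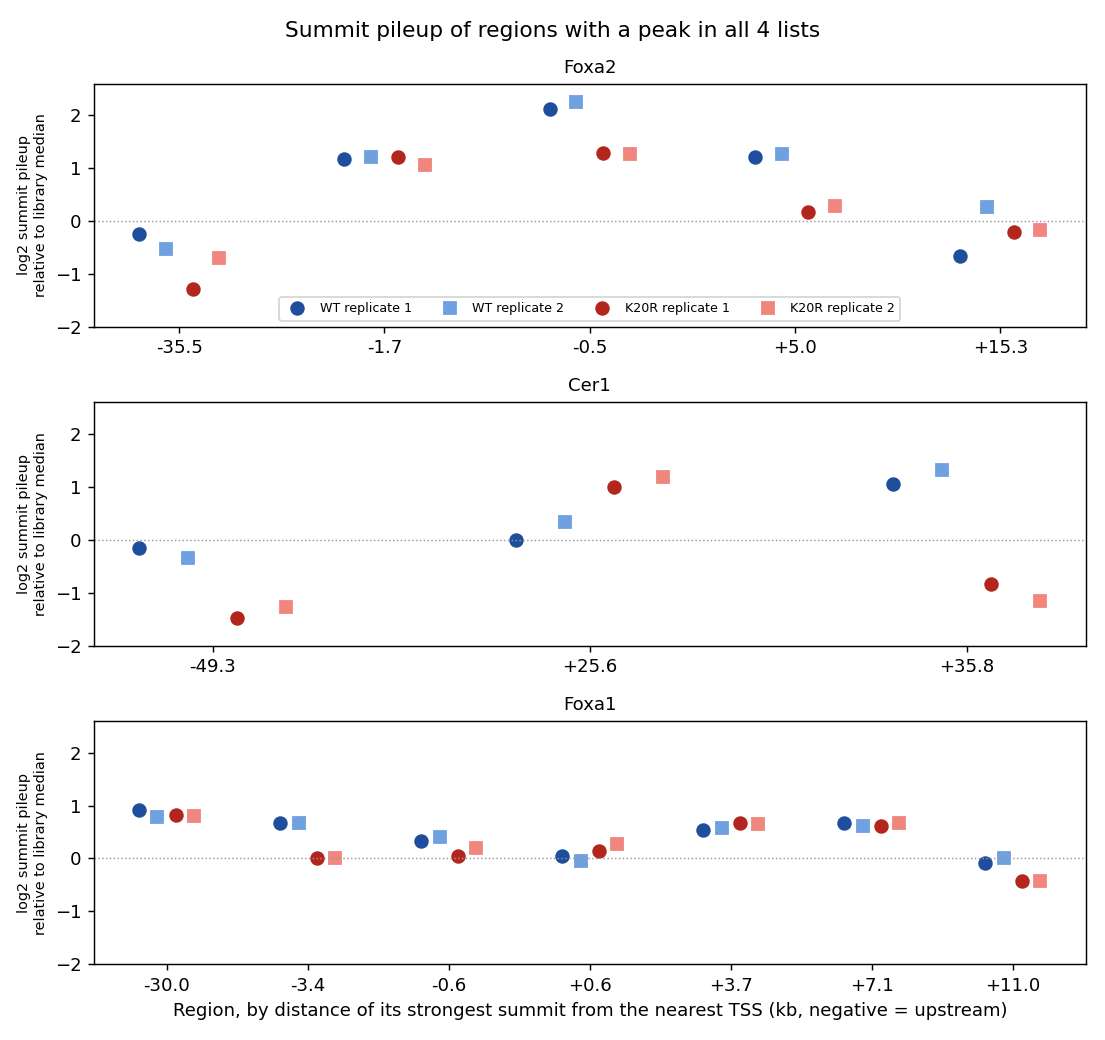
Summit pileup on a log2 scale relative to the median of common regions of the same library (vertical axes) for the regions of Foxa2, Cer1 and Foxa1 with a peak in all 4 lists, ordered by the distance of the summit from the nearest TSS. Points are the 4 libraries. The Foxa2 promoter (2.12 and 2.25 in WT, 1.28 and 1.27 in K20R) and the region at 5.0 kb stood lower in K20R while the neighbour at −1.7 kb did not, and near Cer1 the regions at 25.6 and 35.8 kb moved apart.

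Foxa1, which binds the same letters as Foxa2, had 2 promoter regions that differed in opposite directions. The upstream region, with its summit at −581 bp from the TSS (chromosome 12, 57546052 to 57547197), was at the percentiles 43.3 and 43.7 in WT, against 30.3 and 33.1 in K20R. The downstream region, at 626 bp (57545154 to 57545788), was at 27.7 and 19.8 in WT, compared with 37.6 and 38.9 in K20R. The strongest promoter peak was thus the upstream region in both WT libraries and the downstream region in both K20R libraries. The call of a lower Foxa1 promoter, from 43.3 and 43.7 to 37.6 and 38.9, compares these different regions. Their pileup differences were small, −0.26 and 0.21 on the log2 scale.

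The same locus held the strongest restricted region near any member. It lies 26.5 kb upstream of Foxa1 in an intron of the neighbouring gene Ttc6 (57571482 to 57572793), at the percentiles 87.7 and 89.1 in WT, with summit pileups of 86 and 135. Neither K20R list had a peak there, and no peak number is missing between the neighbouring peaks of either K20R list, so that no peak was called and then left out. The promoter of Ttc6 itself, 30.0 kb upstream of Foxa1 and the strongest common region there, was at 81.4 and 76.6 in the WT lists, and 85.2 and 85.3 in the K20R lists, and its pileup difference was −0.04 on the log2 scale. A region 3.40 kb upstream of Foxa1 (57548567 to 57550746) was lower in K20R, at 66.2 and 63.5 in WT, against 42.7 and 37.4 in K20R, with a pileup difference of −0.68. Over the 7 common regions of the locus, 3 were lower, 3 higher and 1 overlapped by percentile, beside 34.8% lower and 18.6% higher among all common regions.

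Sox17, a defining factor of endoderm, had a promoter peak of middle to low rank. Its percentiles were 51.8 and 31.7 in WT, compared with 1.77 and 28.4 in K20R (chromosome 1, 4496151 to 4497904). K20R replicate 1 stood far below the others, and WT replicate 2 and K20R replicate 2 were close. The peak of K20R replicate 1 (4497167 to 4497537) did not reach the region's summit at 4496705, which the other 3 peaks cover, so the lower call compares different sites of the promoter. The pileups were 54 and 67 in the WT lists, and 29 and 69 in the K20R lists, over local backgrounds of 17.7, 28.3, 16.6 and 29.8, while the lowest backgrounds of the lists lay between 2.71 and 3.19. The means of 41.8 ± 14.2 and 15.1 ± 18.9 (SD, n = 2 each) differed by little more than the spread between replicates. Ranked anew among common regions, the 2 genotypes overlapped.

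Within Sox17, an exonic region 2.95 kb downstream of the nearest TSS (4491744 to 4493808) was stronger than the promoter in every library. It was at the percentiles 81.4 and 85.5 in WT, against 83.3 and 81.9 in K20R, with a pileup difference of 0.08, close to the 0.08 of the median common region. The intergenic region 46.8 kb upstream, which holds the SOX and FOXA letters printed above, was at 59.7 and 63.0 in WT, compared with 48.5 and 24.7 in K20R. Its pileups of 24, 34, 22 and 17 are small counts, and its pileup difference was −0.61 on the log2 scale.

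Hhex, a homeobox factor of anterior endoderm and liver, kept a strong promoter in both genotypes. Its main promoter region (chromosome 19, 37433898 to 37435669) was at the percentiles 89.3 and 86.1 in the WT lists, and 86.3 and 81.5 in the K20R lists, which overlap. The exact permutation p was 0.667. A second promoter region at a downstream TSS (37436677 to 37438009) was at 56.5 and 49.4 in WT, against 41.6 and 33.5 in K20R, lower in both K20R libraries but overlapping when ranked anew. The region 15.1 kb upstream, in an intron of Kif11 (37419325 to 37420039), was at 40.5 and 47.3 in WT, compared with 24.7 and 28.2 in K20R. Its sequence, given above, holds the CTCF consensus, and its pileup difference was −0.41 on the log2 scale. Near the members this consensus was otherwise found only in regions 18.8 kb upstream and 26.7 kb downstream of Cldn6. Both of those were higher in K20R by percentile, ranked anew and by pileup, so regions with the consensus differed in both directions. At the upstream one, the strongest peak of WT replicate 2 (23661234 to 23661966) did not reach the region's summit at 23660480. The peak that did was at the percentile 55.2, against 68.3 and 72.0 in the K20R lists. No region near Hhex was restricted to a genotype.

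Sox7 has to be read with its surroundings. Its promoter region (chromosome 14, 63942367 to 63944268) was at the percentiles 67.8 and 69.6 in the WT lists, and 41.7 and 41.1 in the K20R lists, with pileups of 40, 58, 21 and 28 and a pileup difference of −1.03. It lies in a stretch of 21.2 Mb in which 78.3% of the 327 common regions ranked lower in K20R and 2.75% higher. Among all common regions ranked anew, 25.5% were lower and 29.2% higher. The median pileup difference of the stretch was −0.81 on the log2 scale. Its bounds were given beforehand as those of a stretch lowered in K20R, so these values are no independent result. The difference at Sox7 is close to that of the stretch as a whole, and what sets the level of the stretch was not tested. The WT-restricted region 34.6 kb upstream, in an intron of Pinx1, lies in the same stretch and was weak, at 11.4 and 21.0 with pileups of 10 and 14.

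Cer1, the Nodal inhibitor of anterior visceral endoderm, had no promoter peak in any list but lay near the region with the largest difference of all 39 common regions. A region 35.8 kb downstream, in an intron of Zdhhc21 (chromosome 4, 82848723 to 82849623), was at the percentiles 91.1 and 93.8 in WT, against 48.5 and 43.7 in K20R. Its pileups were 79 and 140 in WT, compared with 22 and 26 in K20R. The pileup difference was −2.18 on the log2 scale, and 95 of the 38527 common regions, 0.247%, had a lower value. Its printed sequence holds none of the 7 motifs.

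The promoter of Zdhhc21, 25.6 kb downstream of Cer1 (82858849 to 82860032), differed the other way, at 70.7 and 81.8 in the WT lists, and 90.3 and 92.5 in the K20R lists. Its pileup difference was 0.92, and 3.40% of common regions had a higher value. On the other side of Cer1, an intronic region of Frem1 49.3 kb upstream (82933574 to 82934888) was at 68.4 and 66.2 in WT, against 24.7 and 40.4 in K20R, with a difference of −1.12. The K20R peaks there (82933772 to 82934162 and 82933756 to 82934092) did not reach the summit at 82934475, so different sites of the region are compared. The WT-restricted region 31.1 kb upstream, also in an intron of Frem1 (82916007 to 82916618), was weaker, at 14.7 and 36.5 with pileups of 11 and 22. In each K20R list 1 peak number is missing around it, so a called peak may have been left out there.

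Afp and Ttr, which encode serum proteins of visceral endoderm and liver, had a promoter peak in no list. Within 50 kb, Afp had 2 regions and Ttr 6, of which 1 each was in all 4 lists. An intronic region of Afp 9.85 kb downstream of the TSS was at the percentiles 47.9 and 58.7 in WT, compared with 31.9 and 55.0 in K20R, which overlap. The strongest common region near Ttr, 25.1 kb upstream, was at 37.0 and 43.6 in the WT lists, and 29.8 and 46.0 in the K20R lists and overlapped as well. A K20R-restricted region 22.2 kb upstream of Ttr was at 13.8 and 19.2, and 7 peak numbers are missing there in WT replicate 1. Around the Ttr promoter 7, 4, 3 and 4 numbers are missing in the 4 lists, around that of Cer1 6, 3, 1 and 1, and around that of Afp 1, 2, 1 and 0. Only for Afp in K20R replicate 2 can a called promoter peak be said to have been absent.

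The 3 members without a promoter peak had the promoters poorest in CpG. Within 500 bp of the most upstream TSS, the observed over expected CpG ratio was 0.279 for Cer1, 0.392 for Afp and 0.256 for Ttr, and it was between 0.466 (Epcam) and 0.923 (Hhex) for the other 7. The same holds across all genes: 20.3% of 8418 genes with a ratio below 0.4 had a promoter peak in all 4 lists, beside 95.3% of 13396 genes at or above 0.4.

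Cldn6, a tight junction protein of early epithelia, was the member with a higher promoter rank in K20R. Its percentiles were 33.4 and 44.2 in WT, against 49.8 and 50.5 in K20R (chromosome 17, 23679125 to 23679934). The pileups of 50, 79, 55 and 87 overlapped once they were set relative to the library medians, with a difference of 0.09 on the log2 scale, while the local background was 21.7 and 28.7 in WT, compared with 17.5 and 26.7 in K20R. Cldn6 lies in a gene-rich stretch with 14 regions within 50 kb, the most of any member. The promoter of its paralogue Cldn9, 4.37 kb downstream (23682462 to 23684592), was also higher, at 41.3 and 41.0 in the WT lists, and 53.3 and 61.6 in the K20R lists.

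Of the 12 common regions of the Cldn6 locus, 5 were lower, 6 higher and 1 overlapped by percentile, and 2 were lower and 6 higher when ranked anew. The higher ones include regions 20.6 and 26.7 kb downstream, with differences of 3.61 and 10.2 points, and a Bicdl2 promoter region 18.8 kb upstream. An exonic region of Tnfrsf12a 3.40 kb upstream was at 37.3 and 43.4 in WT, against 26.5 and 17.3 in K20R. A promoter region of Bicdl2 14.5 kb upstream was at 43.1 and 64.9 in WT, compared with 39.7 and 37.4 in K20R, and overlapped when ranked anew. The WT-restricted region 16.3 kb downstream of Cldn6 (23695156 to 23696193) was at 78.9 and 79.7 with pileups of 81 and 122, and a weaker one 19.1 kb downstream (23698619 to 23699270) at 4.19 and 15.8. In WT replicate 1 the peak of the weaker region lies by rank within the 4.55% of its list with a q above 0.05. For both regions, 1 peak number is missing in each K20R list, since they lie in the same gap. The strongest common region outside the promoter window, the promoter of Hcfc1r1 5.64 kb upstream, was at 94.7 and 95.2 in the WT lists, and 97.4 and 96.5 in the K20R lists.

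Epcam, an adhesion protein of epithelia that marks endoderm and also pluripotent cells, had a strong promoter in both genotypes. It was at the percentiles 85.3 and 82.9 in WT, against 88.0 and 83.7 in K20R (chromosome 17, 87635539 to 87637270), with an exact permutation p of 0.667. Relative to the library medians its pileups were 1.02 and 0.84 in WT, compared with 1.34 and 1.23 in K20R on the log2 scale, so K20R was higher on this scale and not by rank. The local background was 9.61 and 11.5 in the WT lists, and 12.2 and 17.2 in the K20R lists. The K20R-restricted region 33.0 kb upstream of Epcam was weak, at 20.4 and 13.2 with a pileup of 13 in both libraries, and no peak number is missing there in the WT lists.

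Over all 65 regions, 39 had a peak in all 4 lists, 6 were WT-restricted, 3 were K20R-restricted and 17 were in other combinations. Among the 60116 regions within 50 kb of any protein-coding TSS, 8.75% were WT-restricted and 2.97% K20R-restricted, so the members' 6 and 3 of 65 were near these shares. Of the 39 common regions, 18 were lower and 11 higher by percentile, beside 34.8% and 18.6% of all common regions. Ranked anew, 13 were lower and 12 higher, beside 25.5% and 29.2%. The 30 common regions outside the members' promoter windows divided evenly on this scale into 10 lower, 10 higher and 10 overlapping. The median pileup difference was −0.06 for the 39 regions and 0.08 for all common regions.

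**Figure D3:**
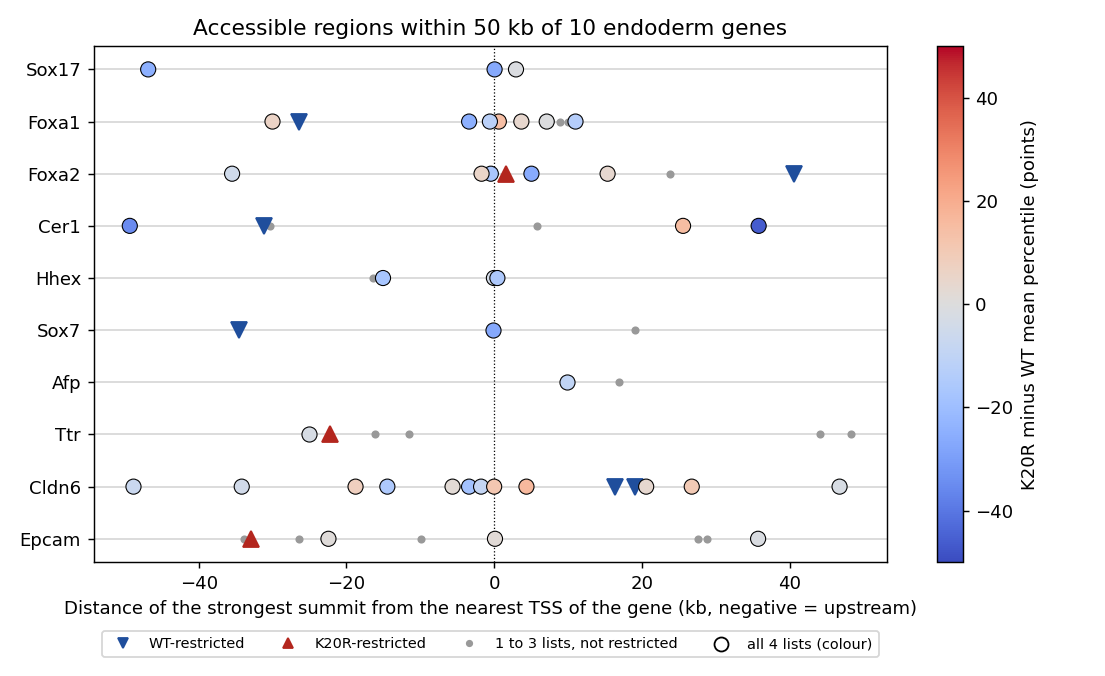
Regions within 50 kb of the 10 members, 1 row per gene, by the distance of the strongest summit from the nearest TSS in kb. Circles are regions with a peak in all 4 lists, coloured by the difference of mean percentile (blue lower and red higher in K20R), triangles are regions restricted to a genotype, and grey dots are regions in other combinations of lists. The 6 WT-restricted regions lie near Foxa1, Foxa2, Cer1, Sox7 and Cldn6, and the lowest circle is the Cer1 region at 35.8 kb, with a difference of −46.4 points.

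Peaks within 50 kb numbered 50 and 60 in WT, compared with 51 and 51 in K20R, means of 55.0 ± 7.07 and 51.0 ± 0 (SD, n = 2 each), with an exact permutation p of 1.00. By position, 19 of the 65 regions were promoters, 5 exonic, 13 intronic and 28 intergenic, and 10 of the 55 outside the members' own promoter windows were promoters of other genes. The median GC content around the summit was 54.0%, beside 52.3% for all regions.

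Other genes were divided into lists of regulators, of visceral endoderm and liver genes, and of epithelial genes. The epithelial genes are not particular to endoderm. Of 12 regulators of mesendoderm and definitive endoderm, all had a promoter peak in every library, 9 were lower in K20R, 2 higher and 1 overlapped, beside 32.2% lower and 15.7% higher of all genes. Ranked anew, 8 were lower and 2 higher. The median difference was −8.86 points, beside the −0.824 points of all genes, and −13.2 points when ranked anew. Gata6 was at 83.5 and 88.2 in the WT lists, and 56.5 and 66.0 in the K20R lists, and Gata4 at 80.2 and 71.1 in WT, against 52.1 and 58.9 in K20R. Both are zinc finger factors of endoderm and of heart mesoderm. The T-box factor Eomes and the homeobox factor Gsc were the 2 that were higher, by 5.54 and 2.74 points. Many of these regulators also act in mesoderm, so the list does not mark endoderm alone. The counts and medians of this list are not given without genes of the lowered stretch of chromosome 14, in which Sox7 lies. Gata4 and the other regulators were thus not judged apart from that stretch.

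Of 12 visceral endoderm and liver genes, 7 had a promoter peak in every library, of which 3 were lower, 1 was higher and 3 overlapped, not far from the 32.2% and 15.7% of all genes. Their median difference was −3.51 points. Rbp4, which carries retinol, and Apob, a lipoprotein, were lower, with differences of −14.6 and −12.7 points, and the signal Ihh was 2.85 points higher. Of 8 epithelial genes, all with a promoter peak in every library, 2 were lower, 4 higher and 2 overlapped, with a median difference of 5.63 points. Ranked anew, 1 was lower and 6 were higher, with a median difference of 10.8 points beside 0.0656 points for all genes. Cdh1, the epithelial cadherin, was at 86.8 and 82.7 in WT, compared with 95.4 and 96.8 in K20R, and the keratin gene Krt18 was 8.97 points higher. The keratin genes Krt19 and Krt8 were lower, with differences of −6.62 and −6.50 points, Krt8 on the first scale alone. On both scales the median difference of the epithelial genes was above 0 and that of the regulators below 0. The lists were chosen with earlier results of these data known, so this contrast is a description and was not tested. Genes of the lowered stretch of chromosome 14 were not set apart in it.

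**Figure D4:**
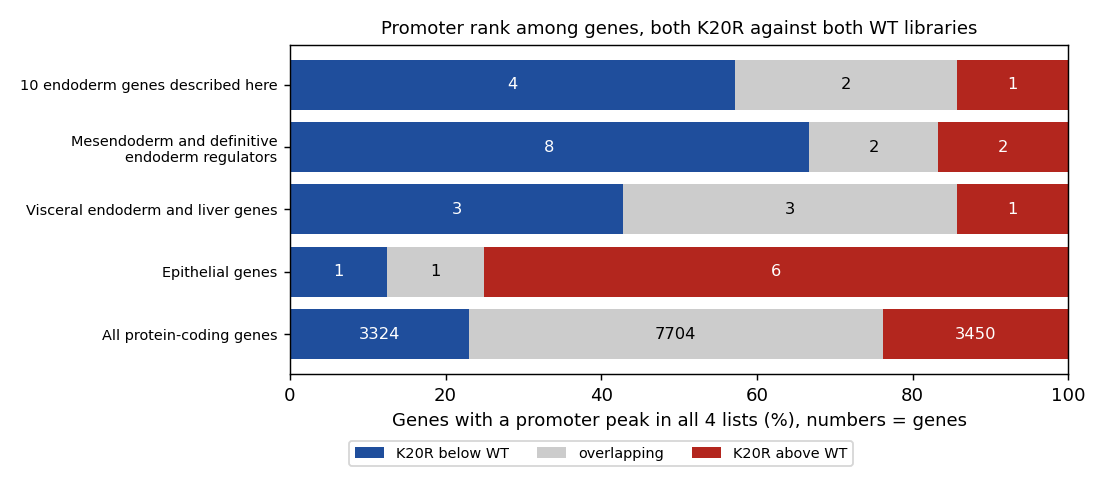
Share of genes with a promoter peak in all 4 lists (horizontal axis, percent) whose promoter, ranked anew among such genes, was lower in both K20R libraries, overlapping, or higher in both, with the number of genes in each bar. The regulators had 8 of 12 lower and the epithelial genes 6 of 8 higher, beside 23.0% lower and 23.8% higher among all genes. The lists were chosen with earlier results of these data known, and genes of the lowered stretch of chromosome 14 were not set apart.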

How the data were processed

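The data were 1 ATAC-seq peak list for each of 4 libraries, with genotype and replicate number taken from the labels. The methods of the study state trimming with Trim Galore, alignment to mm10 with Bowtie2, removal of poorly mapped, duplicate and blacklisted reads, and peak calling with MACS2. Each deposited list gives a score (10 times the −log10 p), a fold of summit pileup over local background, and a −log10 p and −log10 q for each peak, as the authors' peak caller wrote them. Peak numbers have gaps (50.5% to 60.8% are kept), so called peaks were taken out of the deposited lists by a rule not given in the sources used here. Reads were not used, so no count test was made.

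The strongest peak by −log10 p stood for each promoter (GENCODE vM21 basic annotation, protein-coding transcripts) or region. Pileup and background were recovered from fold and p, and 99.975% or more of the pileups of each list came out whole within 0.5%. Genotypes were compared by non-overlap and by exact two-sided permutation tests. All members were named. Regions named were every restricted region, the strongest common region outside the promoter window, and common regions outside it that did not overlap and differed by 15 points or more. One region that this rule names is not reported here. The second promoter regions of Foxa1 and Hhex and 3 higher regions near Cldn6 were named after their values were seen. The Foxa2 regions 15.3 kb downstream and 35.5 kb upstream are also named outside this rule. Of the other lists up to 2 genes in each direction were named. The members and lists were chosen with earlier results of these data known. Scripts ran in Python 3.11.15 with pandas 2.3.3 and scipy 1.17.1, and were tested on simulated data.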

Additional observations from a re-analysis of the deposited data

How the results depend on the processing

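Of 99 alternative values, 76 stayed within 1.5 times the reported count or within the spread of the log2 ratio, and 23 moved beyond it. The log2 ratio of WT to K20R peaks, which passed no test, changed sign from 0.11 to −0.06 within 10 kb, to −0.06 with equal numbers of peaks and to −0.03 without WT replicate 2. A promoter window of 2000 bp left 0 members higher. With a −log10 q of at least 10, 3 members had a promoter peak in every library, 2 were lower, 0 regions were K20R-restricted, 6 common regions were lower and 7 higher, and the log2 ratio was 0.36. With each list shortened to an equal number of its strongest peaks, 2 members were lower, 11 common regions were lower and 12 higher (18 and 11 as reported), and 4 regions were restricted to each genotype. Within 10 kb, 0 regions were WT-restricted, 1 was K20R-restricted, 9 common regions were lower and 6 higher, and within 100 kb 14 and 5 were restricted. Counting WT-restricted regions only where both K20R lists have an unbroken numbering left 2. These were the region 26.5 kb upstream of Foxa1 and the weak Sox7 region in the lowered stretch of chromosome 14. Requiring the summit itself to lie in the promoter window, an alternative chosen after seeing the data, left the promoter counts at 7, 4 and 1. A window or list that is smaller holds fewer regions by construction.

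Leaving out each library in turn gave 1 to 2 members higher (2 without WT replicate 1 or K20R replicate 2), 6 to 12 WT-restricted regions (12 without WT replicate 1) and 3 to 6 K20R-restricted regions (5 without WT replicate 2, 6 without K20R replicate 1 and 5 without K20R replicate 2). A region then needs a peak in only 1 list of that genotype, or absence from only 1. Replicate numbers are shared by the genotypes, but the labels do not say that they pair the samples, and deviations of same-numbered libraries were correlated at r = 0.04. With the replicate block, 5 members were lower and 2 higher, 20 and 12 common regions were lower and higher, and the log2 ratio was 0.10, with −0.03 and 0.23 in the 2 pairs. Read depth per library and the rule behind the missing peak numbers limit every absence.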
